A study of Mus musculus with 34 samples.

Results

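The acute phase genes Crp, Apcs, Orm1 and A2m were measured in the livers of 13 mice, 7 kept at thermoneutral temperature (TN) and 6 under chronic heat stress (HS). They were chosen by their symbol in the annotation of the array, which gives Crp at 4 spots and each of the other three at 1 spot. These are 7 of the 1920 spots of the array and 4 of the 1019 genes named by 1 symbol. The rule of choice used symbols only, but earlier results of these data were known when it was made. The Crp spots were kept apart and are numbered here 1 to 4 in the order of the table. All 4 carry the same rat sequence record in the annotation.

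Liver RNA of each mouse was hybridised to spotted two-colour arrays against a universal mouse reference RNA, so each value is a log2 ratio of liver over that one pool. The TN mice were fed an endophyte-free fescue diet (E-), a forage grass free of its toxic fungus, and were hybridised on 20 arrays. The HS mice were exposed to heat for 2 weeks and were hybridised on 14 arrays. Labels of 8 HS arrays state 34 °C, those of 7 a start at 27 days of age and those of 5 an end at 40 days. The TN labels give neither temperature nor age, and the HS labels do not give the diet. The labels of F222 and M242 name the ICR strain, and strain is not given for the other mice in the sources used here. Heat, diet, age and hybridisation batch cannot be told apart in this design. Identifiers starting with F or M split the mice into 3 F and 4 M in TN and 3 F and 3 M in HS. The letter is used as a letter, because the labels call M233 male but M242 female. The mouse was the replicate, with 1 to 4 arrays each, and 21 arrays held the liver RNA in Cy5 and 13 in Cy3. The array carries rat oligonucleotides, so mouse RNA was read across species. In a bulk sample, fewer cells of a type and less RNA per cell cannot be told apart.

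The acute phase response is the change in plasma protein output by hepatocytes after infection, injury or other stress, driven mainly by interleukin 6, interleukin 1 and glucocorticoid. Crp encodes C-reactive protein and Apcs encodes serum amyloid P component, ring-shaped pentraxins of the blood that bind damaged cells, microbes and chromatin. In mice serum amyloid P is the pentraxin that rises strongly in inflammation and C-reactive protein changes little, the reverse of the human pattern. Orm1 encodes alpha-1-acid glycoprotein, a lipocalin that binds drugs and lipids. A2m encodes alpha-2-macroglobulin, which traps proteases and is among the strongest acute phase proteins of the rat. In mice the related gene Pzp makes the main plasma protein of that type.

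Crp and Apcs lie on mouse chromosome 1 in the GRCm38.p6 annotation of RefSeq, Crp at chr1:172698056-172699966 and Apcs at chr1:172893961-172895054. Orm1 lies at chr4:63344556-63348163 and A2m at chr6:121636165-121679238. The RefSeq promoter table held 2 of the 4 genes, the pentraxins, whose liver ratios had Pearson correlations of 0.23 to 0.81 across the mice, by Crp spot. The 250 bases before the start of these 2 genes are shown 5′ to 3′ because the promoter table held them. Crp is on the plus strand (chr1:172697806-172698055) and Apcs on the minus strand (chr1:172895055-172895304). Whether the windows bear on the correlations was not tested. Capitals mark matches on either strand to 4 motifs that were searched.
Crp: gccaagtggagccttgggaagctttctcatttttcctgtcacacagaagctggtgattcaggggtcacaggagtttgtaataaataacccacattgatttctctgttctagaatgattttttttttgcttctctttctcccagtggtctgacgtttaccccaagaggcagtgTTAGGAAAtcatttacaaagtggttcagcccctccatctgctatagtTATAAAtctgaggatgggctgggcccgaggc
Apcs: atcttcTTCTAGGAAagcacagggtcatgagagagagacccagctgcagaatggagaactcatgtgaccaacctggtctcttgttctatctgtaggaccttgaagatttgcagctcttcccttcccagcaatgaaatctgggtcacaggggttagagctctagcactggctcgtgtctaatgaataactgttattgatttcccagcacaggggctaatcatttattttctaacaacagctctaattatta
The Crp window held 1 TATA box (TATAAA), which starts 31 bases before the gene, and 1 match to a C/EBP-type motif (TTNNGNAA), which starts 78 bases before it. The Apcs window held neither and had 1 match to a STAT-type motif (TTCNNNGAA) near the far end of the window. Neither window held the HNF1-type motif GTTAAT. No 2 of the matches overlapped. Of 32851 promoter windows of this length, 12.4% held the TATA box letters, 36.8% the C/EBP-type motif, 7.02% the STAT-type motif and 6.43% the HNF1-type motif, so the matches are a description of these letters only. The sequences of the array oligonucleotides were not used here.

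The data of these genes showed liver transcripts above the reference for Crp and Orm1 in every mouse, an Apcs ratio that was spread widely and near that of the reference in several M mice, and an A2m ratio near 0. No spot of the 7 changed with heat by the test over all spots. All 7 differences HS minus TN were above 0, from 0.05 to 0.62 in log2 units, but those of Crp, Apcs and Orm1 were 0.44 to 1.24 on arrays with the liver in Cy3 and −0.23 to 0.09 on arrays with the liver in Cy5. The largest difference among the members was that of Apcs between F and M mice, which did not pass the test over all spots either.

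Crp spot 1 had the highest ratios of the Crp spots. In the TN mice its log2 ratio of liver over reference ran from 0.77 (M243) through a median of 1.45 to 2.61 (F223), with a mean of 1.63 ± 0.59 (SD, n = 7). In the HS mice it ran from 0.95 (M233) through 2.03 to 2.82 (M242), with a mean of 1.97 ± 0.71 (SD, n = 6). All 13 mice lay above the reference and the groups overlapped over most of their range, with 2 HS mice above the highest TN mouse. The TN mean corresponds to 3.10-fold of the reference (95% interval 2.24 to 4.29) and the HS mean to 3.92-fold (2.76 to 5.58), on the scale where each array's median spot is at 1. The limma test against 0, adjusted over all spots by Benjamini-Hochberg, gave an adjusted p of 2.24e-06 in TN and 4.47e-07 in HS.

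Crp spot 2 read from 0.48 (M243) through 1.06 to 1.88 (F235) in the TN mice, with a mean of 1.10 ± 0.47 (SD, n = 7). Among the HS mice it read from 0.90 (M233) through 1.24 to 2.94 (F241), with a mean of 1.55 ± 0.78 (SD, n = 6). F241 and M242 were the 2 HS mice above all TN mice, and the other four lay inside the TN range. The adjusted p against the reference was 0.000274 in TN and 1.01e-05 in HS (limma).

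Crp spot 3 read from 0.50 (M251) through 1.43 to 1.82 (M244) in the TN mice, with a mean of 1.25 ± 0.54 (SD, n = 7). HS values ran from 0.60 (F241) through 1.28 to 2.51 (F203), with a mean of 1.47 ± 0.67 (SD, n = 6). F241, the highest HS mouse on spot 2, was thus the lowest on spot 3, and F203 is known from 1 array.

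Crp spot 4 had the lowest ratios, from 0.53 (M243) through 0.67 to 1.88 (F235) in the TN mice, with a mean of 0.89 ± 0.51 (SD, n = 7). The HS values ran from 0.75 (M233) through 1.10 to 1.32 (F222), with a mean of 1.06 ± 0.26 (SD, n = 6). No HS mouse exceeded the highest TN mouse on this spot. All 4 Crp spots passed the test against the reference in both groups.

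Apcs was the member with the widest spread between mice. In the TN mice its log2 ratio was −0.54 in M244, −0.36 in M243 and −0.05 in M251, 0.67 in M211, 0.97 in F236, 1.17 in F223 and 1.62 in F235. The TN mean was 0.50 ± 0.82 (SD, n = 7) and did not differ from the reference by limma (adjusted p = 0.149). In the HS mice the ratio was 0.14 in M256, 0.52 in M233, 0.89 in F222, 1.14 in M242, 1.61 in F203 and 2.37 in F241. The 6 HS mice were all above 0, against 4 of the 7 TN mice, and only F241 exceeded the highest TN mouse. The HS mean was 1.11 ± 0.80 (SD, n = 6), 2.16-fold of the reference (95% interval 1.44 to 3.24), with an adjusted p of 0.00225 by limma. That HS passed and TN did not is no difference between the groups. The TN result turned on a single mouse and on the dye: without M244 the TN mean was 0.68 with an adjusted p of 0.0454, and on arrays with the liver in Cy5 it was 0.83 with an adjusted p of 0.00815 (limma).

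Orm1 read from 0.27 (M243) through 1.08 to 1.77 (F223) in the TN mice, with a mean of 1.12 ± 0.55 (SD, n = 7). Its HS values ran from 0.74 (M256) through 1.30 to 2.99 (F241), with a mean of 1.55 ± 0.85 (SD, n = 6). All 13 mice were above 0, and 2 HS mice, F203 and F241, lay above the TN mice. The TN mean was 2.18-fold of the reference (95% interval 1.55 to 3.06) and the HS mean 2.92-fold (2.02 to 4.22), and both passed the test.

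A2m differed from the reference in neither group. In the TN mice its ratio ran from −1.10 (M244) through −0.21 to 0.61 (M211), with a mean of −0.22 ± 0.57 (SD, n = 7). In the HS mice it ran from −0.95 (F222) through −0.04 to 0.17 (M233), with a mean of −0.17 ± 0.41 (SD, n = 6). Adjusted p-values against the reference were 0.481 and 0.596 by limma, and 3 mice of each group lay above 0. Which of mouse A2m and Pzp a rat oligonucleotide reads was not tested. The single Pzp spot had a TN mean of 0.01 ± 0.32 (SD, n = 7) and an HS mean of −0.26 ± 0.61 (SD, n = 6).

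In all, 5 of the 7 member spots lay above the reference in TN, where 21% of all spots did, and 6 of 7 in HS, where 23.1% did. Counts over spots of 1 gene are not independent, since 4 of these are Crp.

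**Figure D1:**
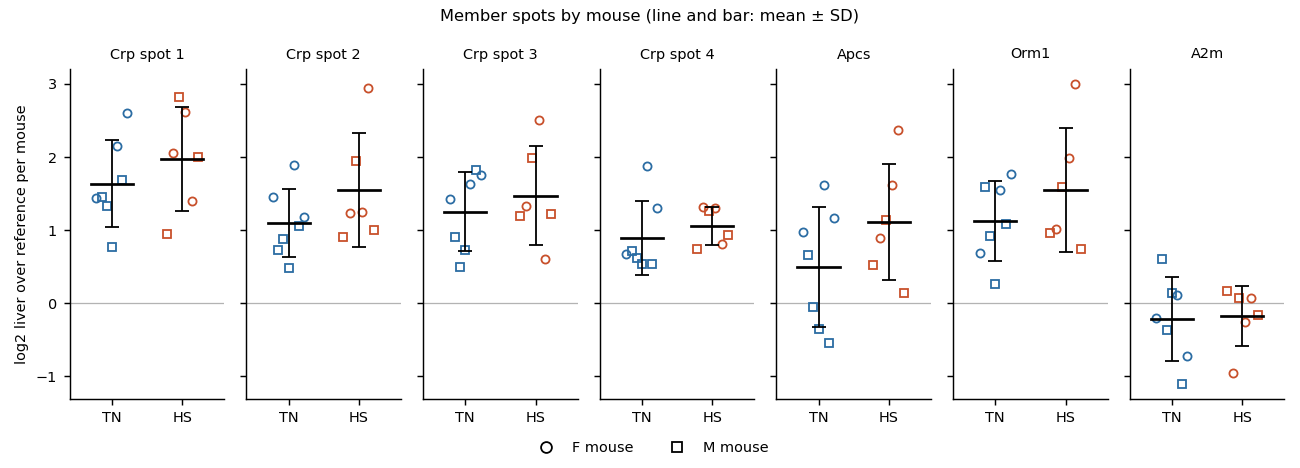
Log2 ratio of liver over reference (y axis) of every mouse at the 7 member spots, TN mice in blue and HS mice in orange, F mice as circles and M mice as squares, with the mean and SD of each group. TN and HS overlap at every spot, and A2m scatters around 0 in both groups, with means of −0.22 and −0.17. Apcs in TN runs from −0.54 to 1.62, with a mean of 0.50.

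The comparison of HS with TN asks whether these transcripts differ after 2 weeks of heat. None of the 7 spots passed the threshold by limma with adjustment over the 1920 spots, where 0 spots (0%) passed and the lowest adjusted p was 0.999. None reached an unadjusted p under 0.05 either, as 46 spots (2.4%) did over the whole array, 20 higher and 26 lower. Apcs had the largest difference, 0.62 (SE 0.38, 95% interval −0.18 to 1.41), which is 1.53-fold. 5 of the 6 HS mice lay above the TN mean, and the exact two-sided permutation test over mice gave p = 0.196. Crp spot 2 differed by 0.45 (SE 0.33, interval −0.23 to 1.13; exact permutation p = 0.231), with 4 of 6 HS mice above the TN mean. Orm1 differed by 0.43 (SE 0.35, interval −0.30 to 1.15; exact permutation p = 0.311), with 3 of 6 above.

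The other spots lay nearer to 0. Crp spot 1 differed by 0.34 (interval −0.35 to 1.03), spot 3 by 0.22 (−0.45 to 0.88), spot 4 by 0.17 (−0.40 to 0.73) and A2m by 0.05 (−0.57 to 0.66). Their exact permutation p-values were 0.36, 0.522, 0.493 and 0.862. All 7 permutation p-values are unadjusted and come from 1716 assignments of the mice. The upper bounds leave room for a rise of 2.66-fold in Apcs, 2.22-fold in Orm1 and 1.58-fold in A2m. The sign was positive at all 7 spots, against 48.6% of all spots, but the spots share mice, arrays and, for Crp, the gene. Single mice moved these differences by more than 1.5 times. Crp spot 1 gave 0.20 without M243, 0.21 without M242 or F203 and 0.55 without M233. Crp spot 3 gave 0.01 without F203, 0.07 without M251, 0.12 without M243 and 0.39 without F241. At Crp spot 4 the value was 0.10 without M243 or F222, 0.11 without M244 and 0.31 without F235, and at Orm1 it was 0.28 without M243. The A2m difference, near 0 throughout, ran from −0.08 to 0.22. No spot of the array had HS and TN mice that did not overlap.

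The heat differences of Crp, Apcs and Orm1 were larger on arrays with the liver in Cy3 than on those with it in Cy5, by a gap that did not pass a test over mice. On the arrays with the liver in Cy5, Apcs averaged 0.83 ± 0.68 (SD, n = 7) in TN and 0.83 ± 0.27 (SD, n = 5) in HS. On the arrays with the liver in Cy3 it averaged 0.05 ± 1.11 (SD, n = 7) in TN and 1.28 ± 1.67 (SD, n = 6) in HS. The Apcs difference was therefore 0.00 (SE 0.36) in one orientation and 1.24 (SE 0.64) in the other. Orm1 went from −0.16 (SE 0.35) on Cy5 arrays to 1.07 (SE 0.52) on Cy3 arrays. The Crp spots in order differed by −0.08, 0.09, −0.09 and −0.23 on Cy5 arrays and by 0.84, 0.92, 0.44 and 0.65 on Cy3 arrays. A2m went the other way, with 0.33 (SE 0.49) on Cy5 arrays and −0.10 (SE 0.29) on Cy3 arrays.

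No difference within an orientation passed over all spots (limma, lowest adjusted p of the members 0.776). In the 12 mice with both orientations, the gap between the Cy5 and the Cy3 value was compared between HS and TN by an exact two-sided permutation test over 792 assignments. Orm1 came nearest, with a gap that was lower in HS by 1.21 (p = 0.0518), followed by Crp spot 4 (0.88 lower, p = 0.0922) and Apcs (1.20 lower, p = 0.167). The other 4 spots had p-values from 0.274 to 0.694 in the same exact test, and these 7 values are unadjusted. This comparison was chosen once the values were known. With few mice, each of which had 1 Cy3 array, this test cannot settle whether the gap differed between HS and TN. Over the whole array 53.6% of the spots with a value on every array had the same sign in both orientations, and 53.7% were above 0 on Cy3 arrays and 40.4% on Cy5 arrays.

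**Figure D2:**
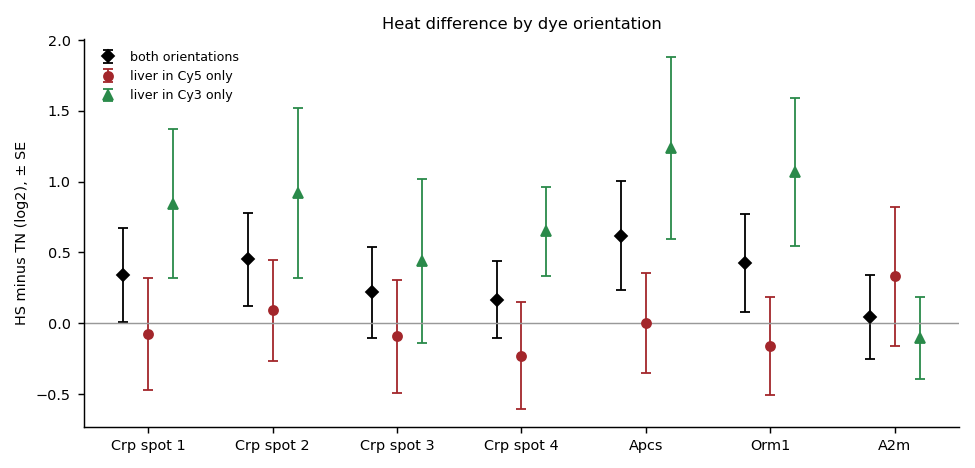
Difference HS minus TN in log2 units (y axis) at each member spot, with its standard error, from both dye orientations together (black), from arrays with the liver in Cy5 (red) and from arrays with the liver in Cy3 (green). The Cy3 arrays give 0.44 to 1.24 for Crp, Apcs and Orm1, and the Cy5 arrays −0.23 to 0.09.

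Single arrays carried much of the spread. The second Cy5 array of F235 (TN) was among the 3 highest of the 34 arrays at all 6 spots of Crp, Apcs and Orm1. It read 4.85, 2.84, 3.08 and 3.68 at the Crp spots, 2.59 at Apcs and 3.37 at Orm1. The first Cy5 array of the same mouse read 0.03, 1.55, 0.82 and 0.74 at the Crp spots, 1.42 at Apcs and 0.11 at Orm1, and its Cy3 array read 1.01 to 1.24 at the 6 spots. So 1 mouse ranged over 4.82 log2 units at Crp spot 1, which is more than the whole range between mice.

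The Cy3 array of M242 (HS) read 4.87, 2.80, 3.68 and 1.99 at the Crp spots, 2.43 at Apcs and 2.88 at Orm1. Its pair of Cy5 arrays read 0.57 to 2.36 at the Crp spots, 0.07 and 1.10 at Apcs, and 0.61 and 1.14 at Orm1. The Cy3 array of F241 (HS) was among the 3 highest arrays at 4 of the 6 spots. It read 4.32 at Crp spot 2, 3.94 at Apcs, 4.18 at Orm1 and 1.95 at Crp spot 4, beside 1.61 and 0.52 at Crp spots 1 and 3. The Cy5 array of F241 read 1.57 at Crp spot 2, 0.80 at Apcs, 1.81 at Orm1 and −0.33 at Crp spot 4. That Cy3 array also had a wide spread over all its spots, with a median absolute deviation of 1.91 where the median of the 34 arrays was 0.979. Without F241 the heat difference fell to 0.20 for Crp spot 2, to 0.40 for Apcs and to 0.16 for Orm1. Without the 3 arrays highest over these 6 spots, of which 2 are from HS mice and which were chosen once the values were known, Apcs differed by 0.25 (SE 0.36), Orm1 by 0.29 (SE 0.31) and Crp spot 2 by 0.22 (SE 0.25). The HS mean of Apcs was then 0.64, with an adjusted p against the reference of 0.0582 (limma).

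A2m had its lowest values on Cy5 arrays. M244 read −2.54 in Cy5 and 0.34 in Cy3, F223 read −1.68 and 0.23, and F222 read −1.81 and −1.50 on its pair of Cy5 arrays and 0.16 in Cy3. On the 13 Cy3 arrays A2m ran from −0.44 to 1.14. The mice that set the low end of A2m did so on 1 dye. The TN mean of A2m was −0.69 ± 1.04 (SD, n = 7) on Cy5 arrays and 0.15 ± 0.52 (SD, n = 7) on Cy3 arrays. The Cy5 array of M244 had the widest spread of the series, a median absolute deviation of 2.46.

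Repeat arrays of a mouse in the same dye showed the technical error directly. Over the 8 mice with more than 1 Cy5 array, the SD between those arrays was 1.27, 0.50, 0.68 and 0.75 at Crp spots 1 to 4, 0.76 at Apcs, 1.02 at Orm1 and 0.37 at A2m. The median over all spots was 0.55, and Crp spot 1 (98th percentile) and Orm1 (93.5th percentile) were near the upper end. At both spots the SD includes the Cy5 pair of F235, which read 0.03 and 4.85 at Crp spot 1 and 0.11 and 3.37 at Orm1. That pair gave the largest range within a mouse at both spots, and the SDs without it were not computed. The pooled SD between mice of a group was 0.65, 0.63, 0.60 and 0.41 at the Crp spots, 0.81 at Apcs, 0.70 at Orm1 and 0.51 at A2m. The array SD exceeded the mouse SD at 4 of the 7 spots, and at 53.9% of all spots. The value of a mouse comes from 1 to 4 arrays and still carries their error, so these SDs are a description and were not tested against each other. Liver was above the reference on 34, 31, 33 and 33 of the 34 arrays at Crp spots 1 to 4, on 32 at Orm1, on 27 at Apcs and on 18 at A2m.

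**Figure D3:**
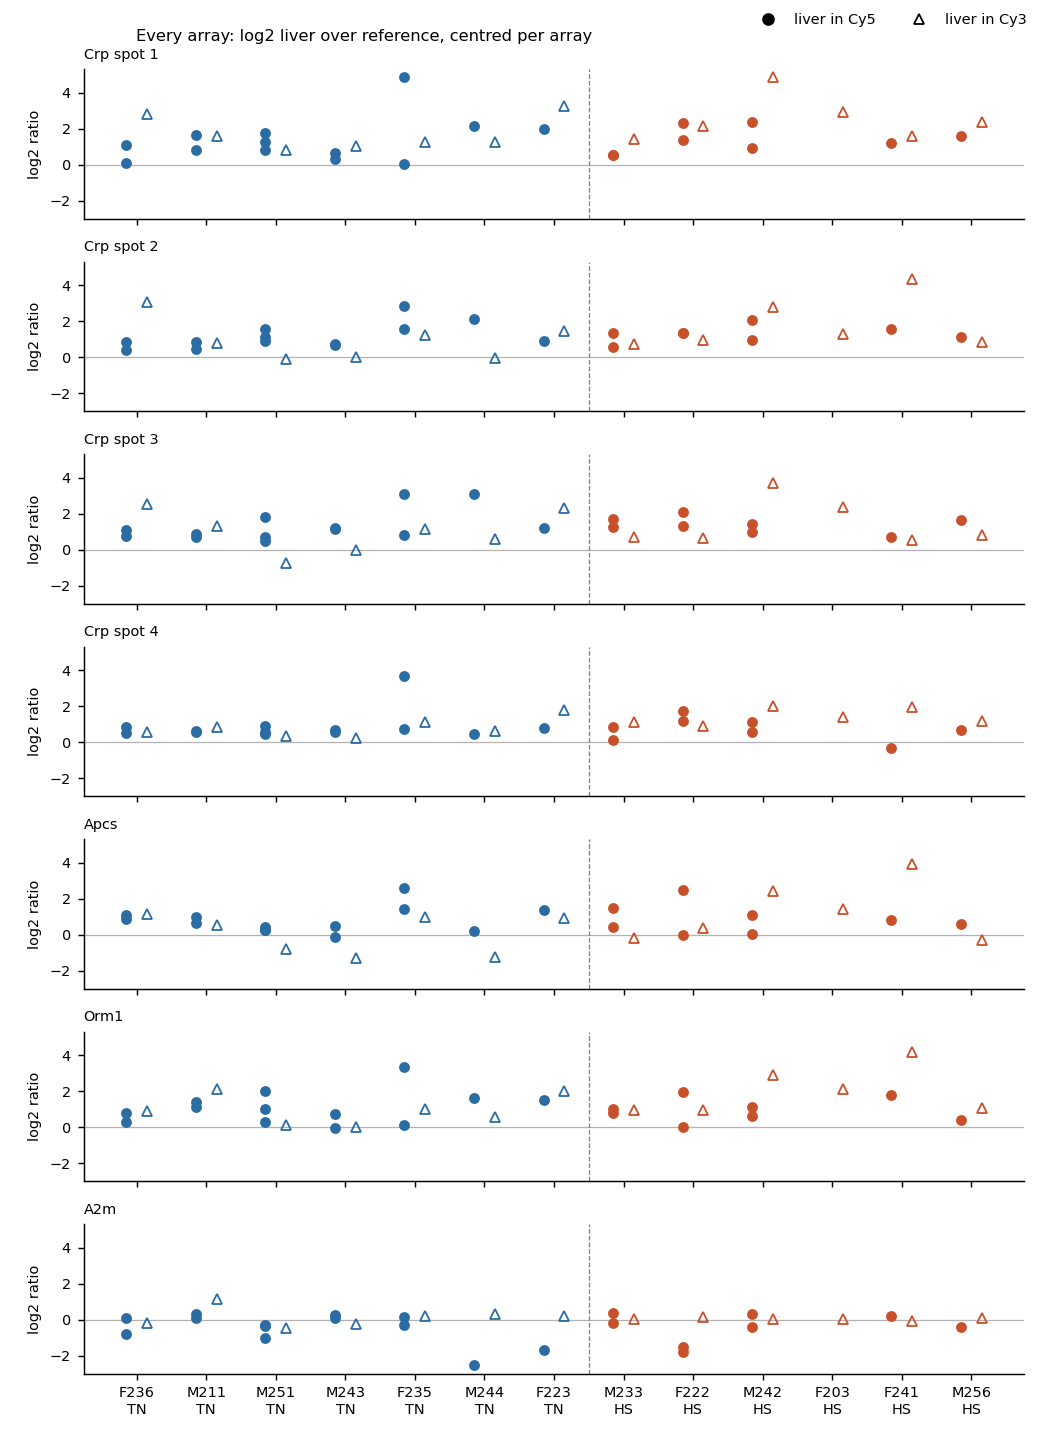
Log2 ratio of liver over reference (y axis, each array centred on its median) on every array, by mouse (x axis, TN left and HS right of the dashed line), with filled circles for liver in Cy5 and open triangles for liver in Cy3. The 3 arrays with the highest mean over the 6 spots of Crp, Apcs and Orm1 are 1 Cy5 array of F235 and the Cy3 arrays of M242 and F241. At single spots other arrays are among the highest, such as the Cy3 array of F236 at Crp spot 2 (3.06). The A2m values of −1.50 and below lie on Cy5 arrays of M244, F223 and F222.

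The 4 Crp spots agreed in sign and differed in size. Averaged over the 13 mice, spot 1 read 1.79, spot 3 read 1.36, spot 2 read 1.30 and spot 4 read 0.97. Spot 1 exceeded spot 4 in 13 of 13 mice, by 0.82 ± 0.44 (SD), with an adjusted p of 0.00146 by an exact sign-flip permutation test over mice. Spot 1 exceeded spot 3 by 0.43 in 11 of 13 mice (exact permutation adjusted p = 0.0168), and spot 3 exceeded spot 4 by 0.38 in 10 of 13 (exact permutation adjusted p = 0.0293). The pairs 1 and 2 and 2 and 4 had an adjusted p of 0.0507 each, and the neighbours 2 and 3 differed by 0.05 with an adjusted p of 0.851, by the same exact test over the 6 pairs. The annotation gives all 4 spots the same sequence record, and whether they hold the same oligonucleotide is not stated.

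Within a mouse the highest and lowest Crp spots were 0.28 apart in M243 and 2.35 apart in F241. In F241 spot 2 read 2.94 while spots 1, 3 and 4 read 1.40, 0.60 and 0.81. The Pearson correlation between Crp spots over the 13 mice ran from 0.08 (spots 2 and 3) to 0.78 (spots 1 and 3), and without F241 from 0.55 to 0.78. These correlations share arrays and the median centring and are given as a description. 15 genes of the array had several spots of 1 sequence record. The distance between their highest and lowest spot means had a median of 0.82, which is the value of Crp, and the median correlation between spots of a gene was 0.49, against 0.46 for Crp. The heat difference had 1 sign at all 4 Crp spots, as at all spots of 6 of those 15 genes.

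**Figure D4:**
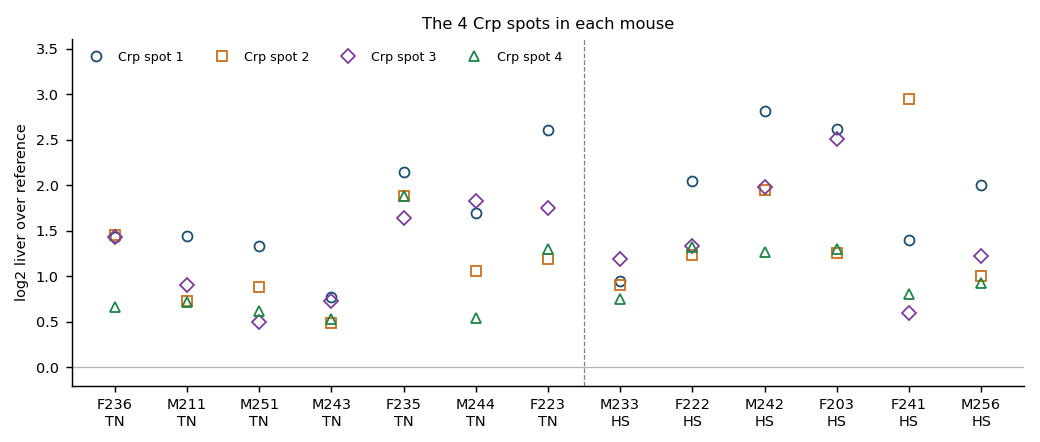
Log2 ratio of liver over reference (y axis) at the 4 Crp spots in each mouse (x axis, TN left and HS right of the dashed line). Spot 1 lies above spot 4 in all 13 mice, and F241 has spot 2 at 2.94 and the other three between 0.60 and 1.40.

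Across the 13 mice, Apcs went with Orm1 (Pearson r = 0.82, and 0.72 without F241) and with Crp spot 2 (r = 0.81, and 0.70 without F241). Its correlation with Crp spots 1, 3 and 4 was 0.43, 0.23 and 0.60, and without F241 0.66, 0.59 and 0.82. A2m went with none of them, with r from −0.33 to 0.24. The genes whose pattern over the mice was most like that of Apcs were Slc27a5, a bile acid CoA ligase (r = 0.92), Faah, which breaks down fatty acid amides (0.91), and Pex6, a peroxisome assembly factor (0.90). Most like Orm1 were Glud1, the mitochondrial glutamate dehydrogenase (0.91), Asgr1, a subunit of the hepatocyte asialoglycoprotein receptor (0.91), and Abcb4, the phospholipid exporter of bile (0.89). Most like A2m were Mx2, an interferon-induced gene (0.90), Ddx46 (0.87) and Odf2 (0.86).

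For Crp the nearest genes differed between spots. They were Cgrrf1 (0.82), Abat (0.80) and Itih4 (0.79) for spot 1, and Igfbp2 (0.86), Glud1 (0.85) and Ak3 (0.84) for spot 2. Spot 3 had Nr0b2 (0.88), Adh1c (0.84) and Asgr2 (0.83), and spot 4 had Cgrrf1 (0.89), Kpna2 (0.80) and Agt (0.78). Cgrrf1 was shared by spots 1 and 4, and the 12 places held no other gene more than once. Itih4, another plasma protein of the acute phase, and Agt, which encodes angiotensinogen, are the acute phase genes of that list. Each correlation is over 13 mice, picked as the highest of all named genes. Without F241 the correlation of Crp spot 2 was 0.66 with Glud1 and 0.55 with Ak3, and those of the other 19 pairs named were 0.80 to 0.92.

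The Apcs difference between F and M mice was larger in size than that between HS and TN. The 6 F mice read from 0.89 (F222) through 1.39 to 2.37 (F241), with a mean of 1.44 ± 0.55 (SD, n = 6). The 7 M mice read from −0.54 (M244) through 0.14 to 1.14 (M242), with a mean of 0.22 ± 0.60 (SD, n = 7). M242, the one M mouse above the lowest F mouse, is the mouse whose label says female. In TN the F mice read 0.97 to 1.62 and the M mice −0.54 to 0.67. In HS the F mice read 0.89 to 2.37 and overlapped with M242. Crp spot 2 also separated the letters in TN, with F mice at 1.185 to 1.885 and M mice at 0.485 to 1.055. How many of all spots separate F from M mice in TN was not counted, so the split cannot be called particular to Apcs.

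With heat in the model, F exceeded M by 1.17 in Apcs (SE 0.32, 95% interval 0.52 to 1.83), which is 2.25-fold. The unadjusted limma p of 0.00116 was the third smallest of the 1920 spots, but adjusted over them it was 0.742. Only 1 spot (0.0521%) passed for the letter, a spot of Gstp1, a glutathione transferase, lower in F mice by 1.94 with an adjusted limma p of 0.00303. It is named here after its value was seen. At an unadjusted p under 0.05 there were 70 spots (3.65%), and Apcs was the only member spot among them. With M242 counted as F the Apcs difference was 1.25, with an adjusted p of 0.228 (limma). Over 25 other settings and the recount of M242 it ran from 0.69 (SE 0.33, liver in Cy5) to 1.51 (SE 0.56, liver in Cy3), and the lowest adjusted p was 0.109, without F222. So its direction was the same in every setting run, and it passed the adjusted threshold in none.

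The other members differed less by letter. F exceeded M by 0.64 in Orm1 (SE 0.34, interval −0.06 to 1.35) and by 0.42, 0.62, 0.32 and 0.42 at the Crp spots, and was lower by 0.25 in A2m, where the estimate was −0.25 (SE 0.31). None of these passed adjusted or unadjusted, and single mice moved them by more than 1.5 times. Crp spot 1 gave 0.18 without M233, 0.27 without F203 and 0.68 without M242, and Crp spot 3 gave 0.06 without F203, 0.48 without M242 and 0.54 without F241. Without F241 Crp spot 2 gave 0.37 and Orm1 0.42, and without F235 Crp spot 4 gave 0.25. The A2m value was −0.08 without F222, −0.11 without M211, −0.13 without F223 and −0.38 without M244. The interaction of letter and heat was −0.30 (SE 0.63) for Apcs and 0.54 (SE 0.68) for Orm1, and no member had an unadjusted p under 0.337.

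Hba-a1, a globin of red blood cells measured at 4 spots, moved with Apcs. The mean of its spots ran from 1.12 to 2.67 in the F mice (1.70 ± 0.54, SD, n = 6) and from 0.15 to 1.55 in the M mice (0.81 ± 0.51, SD, n = 7). F exceeded M at the 4 spots by 0.65 to 0.99, with adjusted p-values from 0.789 to 0.999 (limma). Over the 13 mice its correlation was 0.81 with Apcs, 0.66 with Orm1, 0.54 to 0.66 with the Crp spots and 0.12 with A2m. The median over all other spots was 0.16, and 0.574% of them lay above Apcs. Hba-a1 was also higher in HS by 0.25 to 0.47 at its 4 spots, and its part in the Apcs result was not tested.

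**Figure D5:**
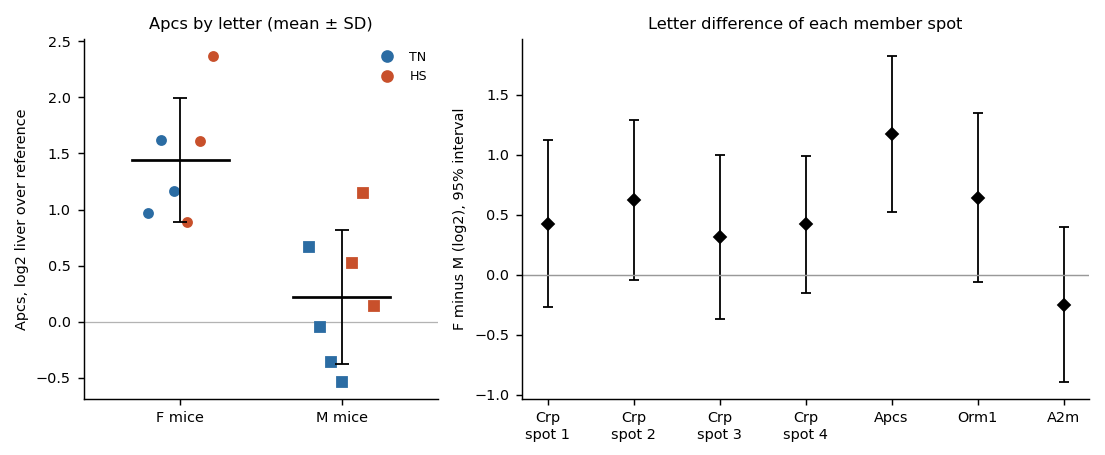
Left, the Apcs log2 ratio of liver over reference (y axis) of each mouse by letter, TN in blue and HS in orange, with mean and SD (1.44 ± 0.55 for F and 0.22 ± 0.60 for M). Right, F minus M in log2 units with its 95% interval at each member spot, where Apcs at 1.17 is the one whose interval does not reach 0.

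The rest of the acute phase response gave the setting. Of 68 symbols listed as positive acute phase genes, members included, 28 genes were measured, at 42 spots. Of these 27 spots had a heat difference above 0, beside 48.6% of all spots, and all 7 member spots are among them. The median was 0.06, beside −0.01 over all spots, and none passed. The 1 spot with an unadjusted p under 0.05, which 2.4% of all spots reached, was that of Mt1, a metal-binding metallothionein (1.17, SE 0.37). The largest differences above 0 after it, members aside, were 1 of the 4 spots of Serpina1, which encodes antitrypsin, at 0.75 (SE 0.39), C1s, a complement protease, at 0.51 (SE 0.32), and Fga, a fibrinogen chain, at 0.40 (SE 0.34). Another Serpina1 spot had the largest difference below 0, −0.49 (SE 0.36), followed by a spot of Fth1, the ferritin heavy chain, at −0.43 (SE 0.30). Haptoglobin (Hp) read −0.12 (SE 0.33), ceruloplasmin (Cp) −0.38 (SE 0.41) and the 4 spots of hemopexin (Hpx) −0.19 to 0.13.

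Of the genes listed as negative acute phase genes, those taken to fall in inflammation, 20 genes were measured at 35 spots. The list is not limited to plasma proteins, as it holds the enzyme Cyp2e1. Of the 35 spots 13 had a difference above 0, beside 48.6% of all spots, the median was −0.10 and none passed. There were 3 spots, all lower in HS, at an unadjusted p under 0.05, which 2.4% of all spots reached. These were 1 spot each of Cyp2e1 (−1.23, SE 0.51), Ahsg (−0.96, SE 0.35) and Apoa1 (−0.93, SE 0.41). The other spots of the first pair of genes did not repeat it in size, and some not in direction: Cyp2e1 read 0.01 and 0.10, and Ahsg read 0.30, −0.43 and −0.02. Of genes of interleukin 6, interleukin 1 and glucocorticoid signalling, 12 were measured at 13 spots. 9 of these spots were above 0, beside 48.6% of all spots, and none was past the threshold. The smallest p-values were those of Il1rap, the accessory chain of the interleukin 1 receptor (0.45, SE 0.25, unadjusted limma p = 0.0857), and Hsd11b1, which regenerates glucocorticoid (−0.62, SE 0.37, unadjusted limma p = 0.106). Cebpb, a factor that drives acute phase genes, read 0.17 (SE 0.27).

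Among family members, Mup4 and Rbp4, lipocalins like Orm1, read −0.25 (SE 0.32) and −0.44 (SE 0.47), and C3, a complement protein related to A2m, read 0.11 (SE 0.34). Hepatocyte markers stood above the reference in both groups at 34 of 38 spots (25 genes). Of all spots 21% did so in TN and 23.1% in HS. The same 38 spots were used to settle the direction of the ratios, so their standing above the reference is no independent result. Of 4 genes of Kupffer cells and macrophages at 5 spots, none stood above the reference. Their mean ranged from −1.16 to 0.07 in the TN mice and from −0.58 to −0.08 in the HS mice. Markers of lymphocytes, neutrophils and endothelium were at none of the named spots, so these cells could not be followed here.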

How the data were processed

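Liver RNA of 13 mice was hybridised on 34 two-colour arrays against a universal mouse reference RNA. The deposited values are log ratios made by the authors from both channels of each spot. The deposited values are taken here as log2 ratios of Cy5 over Cy3, computed by the authors from scanned intensities with steps that the labels do not describe. The base of the logarithm, any background correction, normalization or spot filter is not given in the sources used here; if the base were natural every size would be on that scale. Values ran from −7.64 to 7.71 and array medians from −0.88 to 1.17, so arrays were not centred, and 11 values were missing, none at the spots reported. Hepatocyte genes settled the direction: 31 to 38 of 38 spots lay above the array median with liver in Cy5 and 1 to 7 with liver in Cy3. No intensities were used, so signal over background is unknown, and the number of mice and arrays limits the precision.

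Each array was centred on its median. Per spot, least squares on 13 mouse terms and 1 dye term gave a liver over reference ratio per mouse. limma 3.58.1 (lmFit and eBayes, R 4.3.3) tested groups, two-sided, over 1920 spots measured in 4 mice or more per group, adjusted by Benjamini-Hochberg, with a threshold of 0.05. A further fit held heat, letter and their interaction. Single spots were also tested by exact permutation over mice. The reference is 1 pool, so its own spread enters no test. Nothing states that the mice came from separate cages or litters. The procedure was tested on simulated data with known changes. These were larger than the heat and letter differences of the member spots, so detection of changes of that size was not tested.

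The annotation names 1083 spots by 1 symbol, 7 by several and leaves 830 unlisted. Its symbols are old and its records are those of the rat. The genes and lists were chosen with earlier results of these data known. Genes named beside them are those of the acute phase and family lists, the 2 of smallest p of other lists, and the 3 most correlated with each spot. Cebpb and Gstp1 are named outside this rule. Serpina1, C1s, Fga, Hp, Cp, Hpx and the like were picked from these lists after their values were seen. Promoter sequences are those of RefSeq on GRCm38.p6. Alternatives tried were averaged spots of a gene, no centring, scaling, quantile normalization, plain means without a dye term, either dye alone, 1 fit with the mouse as a random term, array weights, array subsets and each mouse left out.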

Additional observations from a re-analysis of the deposited data

How the results depend on the processing

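No spot of the array passed for HS minus TN under any of the 25 other settings. Of the 28 member results (heat difference, 2 levels and letter difference at each of 7 spots), 682 of their values under other settings kept direction and side of the threshold and 25 did not; where no cause is visible, the cause was not tested. With the liver in Cy5 only, the heat difference turned to −0.076, −0.093 and −0.23 at Crp spots 1, 3 and 4 and to −0.16 at Orm1, the HS level of Crp spot 4 was 0.63 (no longer past the threshold), the TN level of Apcs was 0.83 (now past it), and F minus M of Crp spot 3 turned to −0.19. With the liver in Cy3 only, the TN level of Crp spot 2 was 0.91 (no longer past), the levels of A2m turned to 0.15 in TN and 0.047 in HS, and its heat difference to −0.10. Scaling the arrays to 1 spread gave −0.073 at Crp spot 4 and −0.050 at A2m; A2m also turned without centring (−0.030) and with quantile normalization (−0.047). Without the Cy5 array of M244 and the Cy3 array of F241, Crp spot 4 gave −0.0059 and A2m −0.045. The TN level of Apcs was 0.56 with array weights (past the threshold), and its HS level was 0.64 without the 3 arrays highest in these spots (no longer past). Leaving out 1 mouse at a time, the A2m heat difference ran from −0.075 to 0.22, turning without M244, F223, M233, M242 or F241, and the TN level of Apcs ran from 0.32 to 0.68, past the threshold without M244. Spots past the threshold for the letter numbered 1, but 0 with the liver in Cy5 only and with M242 counted as F, and 1 to 3 with a mouse left out, the highest without F222. Those past it for the interaction numbered 0, but 4 with scaled arrays, 2 with array weights and 0 to 1 with a mouse left out (1 without M244 or F222). The settings for the letter and interaction, apart from M242, were chosen after seeing the data. Without centring, the median heat difference of all spots moved to −0.087. No paired analysis was possible because the replicate numbers in the labels count repeat arrays of 1 mouse and are not shared between TN and HS animals.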

Other observations

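Spots of other acute phase genes showed how far spots under 1 symbol can differ on this array. The 3 spots named Serpina3n, a serine protease inhibitor of the acute phase, read −0.37, 0.91 and 1.49 over the reference in TN, and the 4 spots of Serpina1, the antitrypsin gene, read 4.23 to 4.58. The 4 spots of Fth1, the ferritin heavy chain that stores iron, all lay below the reference, from −1.04 to −0.94 in TN and from −1.48 to −1.24 in HS. Their heat differences were −0.43 to −0.30, of 1 sign at all 4 spots, and none passed over all spots (limma, adjusted p = 0.999). For Serpina1 the 4 heat differences ran from −0.49 to 0.75.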
